A study of Rattus norvegicus with 20 samples.

Results

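Gene expression in the red part of tibialis anterior, an oxidative hindlimb muscle, was compared between male ZDF rats given rosiglitazone and male ZDF rats given resveratrol. All 5 rosiglitazone arrays and all 5 resveratrol arrays of the study were taken by their titles, which makes 10 of its 20 arrays, and the remaining arrays came from 5 obese and 5 lean control rats. The labels state the strain as Zucker, the tissue and the group of each rat, and number the rats of a group as biological replicates, 1 rat per array. They give no dose, duration, route or age for either drug, nor the leptin receptor genotype or diet of the treated rats, so the groups differ at least by the compound and possibly by these. All rats were kept under a reversed light cycle with free access to food.

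Rosiglitazone is a thiazolidinedione that activates PPARgamma, a nuclear receptor that pairs with RXR on DNA repeats of AGGTCA and switches on genes for fatty acid uptake, binding and storage. PPARgamma is most abundant in adipocytes but is also present in capillary endothelium, where in mice it controls fatty acid binding proteins. Resveratrol is a plant polyphenol studied for its effects on sirtuins and AMPK, enzymes that sense the energy state of the cell. Both compounds have been studied as means to improve glucose handling in obese, insulin-resistant animals, and skeletal muscle is the largest site of insulin-stimulated glucose uptake.

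Values were log2 levels made by the authors with RMA, so that a difference of 1 is a doubling. A level can be compared between groups for a gene, but only roughly between genes. The background level given below comes from other genes and is therefore a rough guide. The median of an array lay between 2.48 and 2.55 on the 10 arrays. Over the brighter genes, the correlation between arrays was 0.975 to 0.981 within the rosiglitazone group, 0.973 to 0.982 within the resveratrol group and 0.961 to 0.975 between the groups. Resveratrol replicate 2 had the lowest quality weight of all 20 arrays, 0.648. The muscle markers Acta1, Ckm, Mb, Des and Tnnt3 all averaged more than 10 in both groups. Alb, a liver gene that muscle should lack, averaged 3.81 (SD 0.54, n = 5) in rosiglitazone and 2.69 (SD 0.36, n = 5) in resveratrol arrays, an uncalled difference (adjusted p = 0.463) that was called in a fit of only the 2 groups (0.0252; over all alternatives 0.0252 to 0.602), while another liver gene, Ttr, averaged 2.30 in rosiglitazone and 2.55 in resveratrol arrays. Receptor genes of the nose, which muscle does not use, gave a background level of 2.38.

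The comparison asked which transcripts of red muscle distinguish the drugs. Of 14557 genes tested with limma, 297 were called at an adjusted p under 0.05, which is 2.04% of the genes. With rosiglitazone 209 genes were higher (1.44%) and 88 were lower (0.605%). Here a rise or fall is that of rosiglitazone relative to resveratrol, and either group may be the one that differs from obese rats. Among the largest rises were Rbp7, Cd300lg and Ceacam1, genes of capillary endothelium among other cells, and Scd, Thrsp and Elovl6, genes of fatty acid synthesis. Among the largest falls were Aqp1 and Ace, which are also genes of capillary endothelium, and the transferrin receptor gene Tfrc. The rises were larger than the falls, with a median of 0.70 among called higher genes and -0.54 among called lower genes, and 43 against 5 genes passed 2-fold. The median over all genes was 0.00, with an interquartile range of -0.12 to 0.12.

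Groups that did not overlap on any array were seen for 534 genes (3.67%), of which 248 were called. The count of calls fell to between 177 and 253 when 1 array was left out, and 139 genes, 112 higher and 27 lower, were called whichever array of the 10 was left out. The lowest counts came without resveratrol replicate 2 (177 genes, 129 higher and 48 lower) and without resveratrol replicate 3 (196 genes, 159 higher and 37 lower). Among the called genes, 28 had at least 1 group mean below the background level, and their fold changes may understate the difference.

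**Figure D1:**
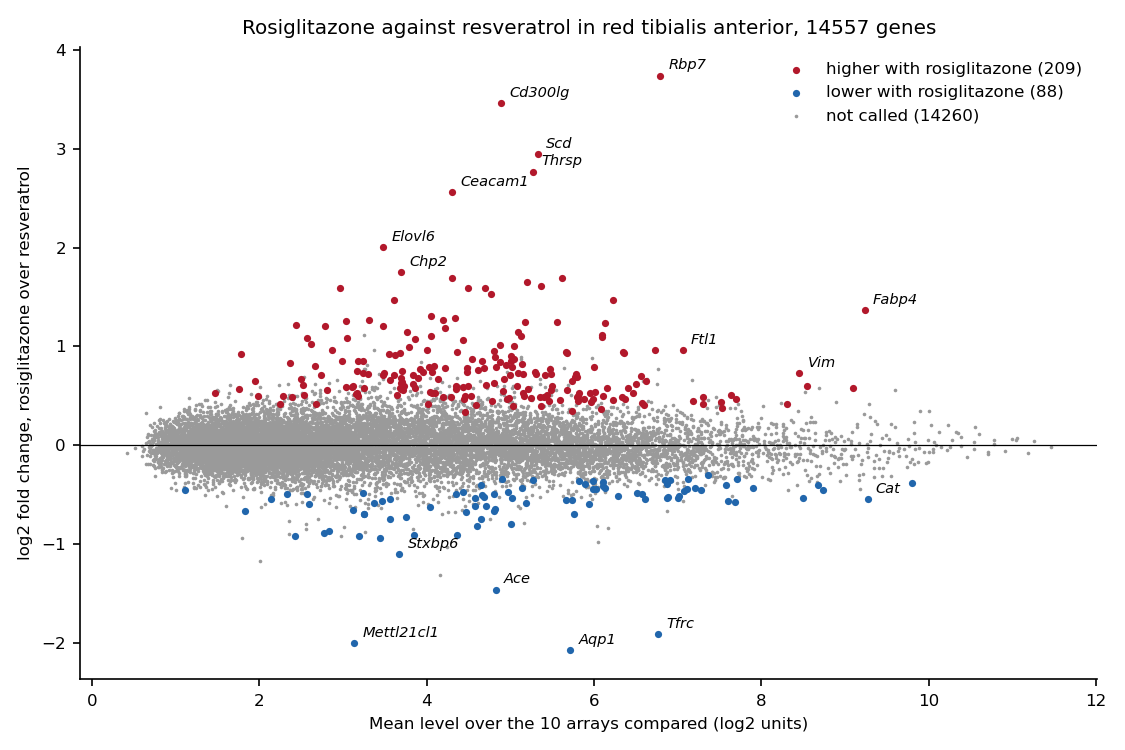
Each point is 1 of the genes tested, with its mean level over the 10 arrays compared (log2 units) on the horizontal axis and the log2 fold change of rosiglitazone over resveratrol on the vertical axis. Red points are the 209 genes called higher and blue points the 88 called lower with rosiglitazone, and the highest point, Rbp7, stands at 3.74.

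The gene with the largest difference was Rbp7, which encodes a retinol-binding protein of the fatty acid-binding protein family that is found in capillary endothelium and adipose tissue. Its log2 level was 8.65, 9.07, 8.44, 8.56 and 8.58 on the rosiglitazone arrays and 4.47, 4.22, 4.98, 5.36 and 5.56 on the resveratrol arrays. The lowest rosiglitazone array lay 2.88 log2 units above the highest resveratrol array. The log2 fold change was 3.74 (SE 0.29), a 13.3-fold difference with an adjusted p of 2.57e-08. The obese and lean control arrays averaged 4.49 and 4.27, near the resveratrol mean of 4.92.

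Cd300lg, a glycoprotein on the surface of capillary endothelial cells, followed with 6.66, 6.89, 6.53, 6.37 and 6.62 in rosiglitazone and 3.19, 2.96, 2.51, 3.16 and 3.93 in resveratrol arrays. Here too every rosiglitazone array lay above every resveratrol array, and the log2 fold change was 3.46 (SE 0.21, adjusted p = 3.52e-10). Ceacam1, an adhesion molecule of endothelial and epithelial cells, had 5.54, 5.63, 5.71, 5.49 and 5.53 in rosiglitazone and 3.30, 3.21, 3.06, 2.71 and 2.80 in resveratrol arrays. Its rosiglitazone values lay close together (SD 0.09, n = 5), and it had the smallest adjusted p of all genes, 1.3e-12, with a log2 difference of 2.56 (SE 0.11). None of these 3 genes lost its call under any of the alternatives tried.

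These genes belong to a list of 18 genes, drawn up as ones that respond to PPARgamma in fat or capillaries, of which 17 were measured. Whether PPARgamma acted on them here was not tested. In it 10 genes were higher (58.8%, beside 1.44% of all genes), none was lower and the median log2 fold change was 0.87. The counts of the lists that follow stand beside the same background of 1.44% higher and 0.605% lower. Because the list was drawn up with earlier results of these arrays known, its count is a description only. Gpihbp1, the capillary protein that holds lipoprotein lipase at the vessel wall, averaged 6.18 (SD 0.12, n = 5) in rosiglitazone and 4.93 (SD 0.30, n = 5) in resveratrol muscle, a 2.38-fold rise (adjusted p = 9.49e-06). Fabp4, the fatty acid-binding protein of adipocytes and capillary endothelium, was at 9.93, 10.01, 9.93, 9.85 and 9.85 in rosiglitazone arrays, all above the 8.68, 8.37, 8.13, 8.71 and 8.87 of resveratrol arrays. Its fold change was 2.57 (adjusted p = 6.9e-06). Mgst1, a membrane glutathione transferase, rose by 1.53 on the log2 scale (SE 0.15, adjusted p = 2.14e-06), with 5.18 to 5.88 in rosiglitazone and 3.92 to 4.09 in resveratrol arrays.

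The other called members of the list were Tinagl1, Plvap, Aqp7 and Meox2. Tinagl1, a secreted matrix protein of vessel walls, was 1.95-fold higher (adjusted p = 0.00258), and Plvap, which forms the diaphragms of endothelial pores, was 1.44-fold higher (adjusted p = 0.0055). Aqp7, a glycerol channel of adipocytes and capillaries, was 2.76-fold higher (adjusted p = 0.0336), with 6.56 to 7.51 in rosiglitazone and 5.06 to 6.02 in resveratrol arrays. Meox2, a homeobox factor of muscle endothelium, was 1.41-fold higher (adjusted p = 0.045). Aqp7 lost its call without rosiglitazone replicate 2, 3 or 5 or resveratrol replicate 1, 2 or 3 (adjusted p 0.0659 to 0.103), and Meox2 without any array other than rosiglitazone replicate 1 and resveratrol replicate 2 (0.052 to 0.124). Cd36, the fatty acid translocase, had no overlap between groups, at 10.10 to 10.27 in rosiglitazone and 9.68 to 9.93 in resveratrol arrays, but its difference of 0.34 was not called (adjusted p = 0.161). Lpl, the lipase that frees fatty acids from lipoproteins, differed by 0.18 (95% interval -0.08 to 0.44) and Angptl4, an inhibitor of that lipase, by 0.87 (95% interval -0.39 to 2.13), neither called. Angptl4 ranged from 3.21 to 5.88 over the resveratrol arrays alone.

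The 15 highest genes included others outside that list. Ly6c, a surface protein of endothelial and myeloid cells, rose by 1.69 (SE 0.18, adjusted p = 4.81e-06) and Clec1a, a C-type lectin, by 1.59 (SE 0.18, adjusted p = 9.49e-06). Tnfsf10, the death ligand TRAIL, was 3.15-fold and Ly6e, a relative of Ly6c, 3.05-fold higher. Efnb1, the guidance ligand ephrin B1, was 3-fold higher with 5.28 to 5.80 in rosiglitazone and 3.65 to 4.07 in resveratrol arrays. Chp2, a calcineurin B homologous protein that binds sodium-proton exchangers, was 3.36-fold higher, and Kctd12b 3.23-fold. Car4, a carbonic anhydrase on the luminal face of capillaries, was 1.63-fold higher (adjusted p = 0.00513) and Pdgfb, the growth factor that recruits pericytes, 1.75-fold higher (adjusted p = 0.00571).

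**Figure D2:**
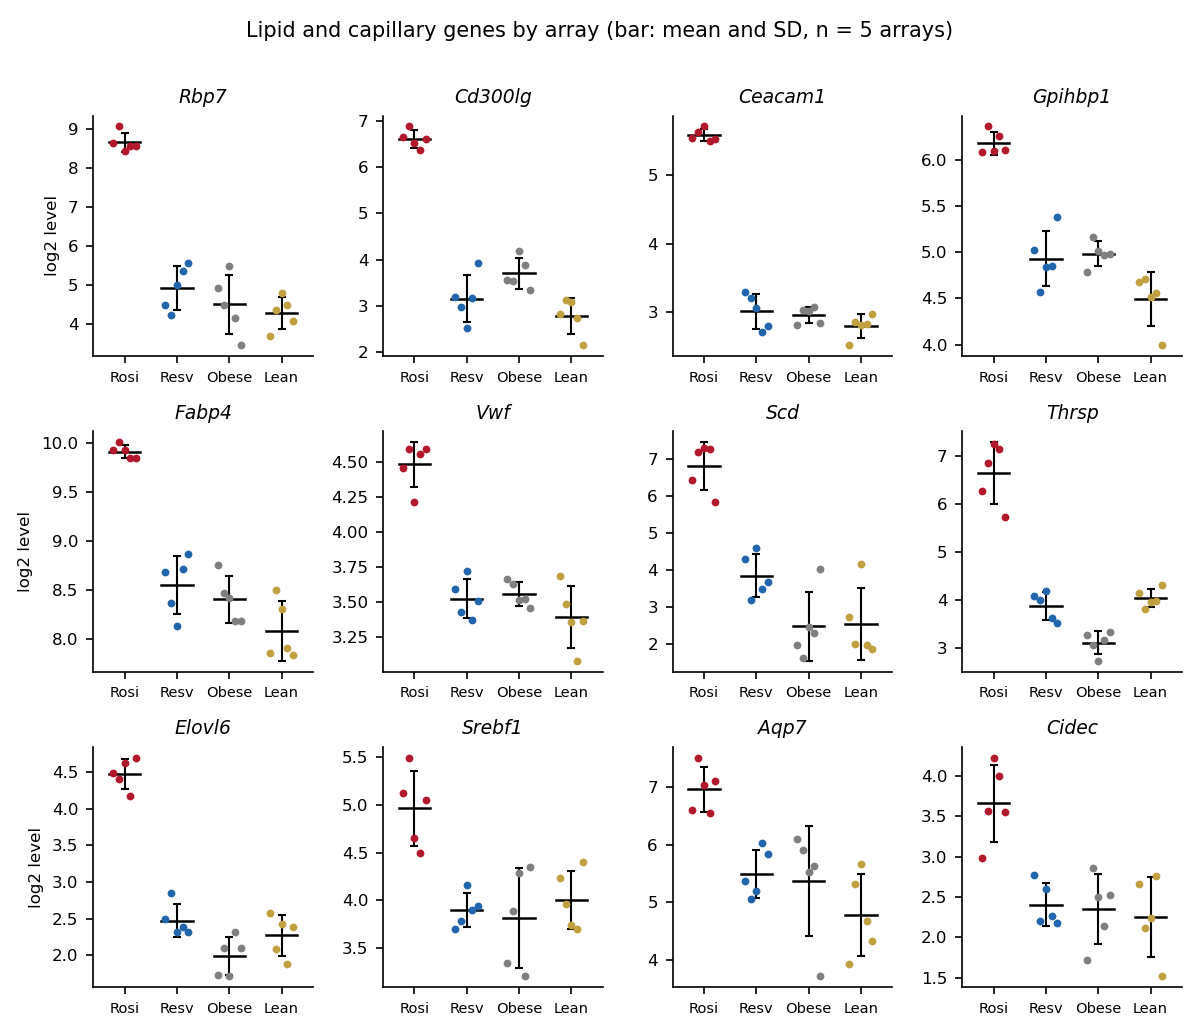
Each panel shows 1 gene, with its log2 level on the vertical axis and a point for each array of the rosiglitazone (Rosi), resveratrol (Resv), obese and lean control groups. Bars give the mean and SD of 5 arrays. In the Rbp7 panel all rosiglitazone points lie at 8.44 or above, and the other 3 groups lie together below them.

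Promoter sequence from RefSeq (build GRCr8) was matched to the called genes, 250 bases before to 50 bases after the start. The consensus PPAR-RXR element DR1, a direct repeat of AGGTCA with 1 base between the copies, was looked for on both strands and was in 0 of 183 windows of called higher genes (166 genes matched), 0 of 77 windows of called lower genes (76 genes) and 4 of 12573 windows of all tested genes (0.0318%). The half-site AGGTCA alone, on either strand and counting those inside DR1, was in 18 windows of called higher genes (9.84%), 6 of called lower genes (7.79%) and 1702 of all (13.5%), so the half-site was not more frequent among either set. The windows below are shown because they belong to the leading gene, to 2 other called higher genes that hold a half-site and to Cat, a called lower gene that holds one. Capitals mark the half-site, which lies 69 bases before the start in Chp2, 28 bases before it in Tinagl1 and 169 bases before it in Cat, and is absent from the Rbp7 window. The search for DR1 took exact matches only, so repeats that differ from the consensus by a base were not counted. In the Tinagl1 window the half-site stands 1 base after a copy that differs from it by 1 base.
Rbp7, chr5:165177350-165177649, minus strand: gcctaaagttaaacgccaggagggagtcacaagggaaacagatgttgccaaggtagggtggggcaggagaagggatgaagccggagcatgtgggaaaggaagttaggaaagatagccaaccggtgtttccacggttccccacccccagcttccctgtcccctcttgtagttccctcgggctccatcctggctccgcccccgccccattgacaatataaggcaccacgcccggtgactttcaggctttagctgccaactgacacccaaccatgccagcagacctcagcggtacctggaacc
Chp2, chr1:186199959-186200258, plus strand: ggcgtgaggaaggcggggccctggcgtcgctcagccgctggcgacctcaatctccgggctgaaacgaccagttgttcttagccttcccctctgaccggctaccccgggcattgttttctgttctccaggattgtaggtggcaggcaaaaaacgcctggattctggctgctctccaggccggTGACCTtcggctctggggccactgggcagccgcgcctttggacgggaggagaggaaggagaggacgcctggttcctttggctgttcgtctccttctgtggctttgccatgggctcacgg
Tinagl1, chr5:147807214-147807513, minus strand: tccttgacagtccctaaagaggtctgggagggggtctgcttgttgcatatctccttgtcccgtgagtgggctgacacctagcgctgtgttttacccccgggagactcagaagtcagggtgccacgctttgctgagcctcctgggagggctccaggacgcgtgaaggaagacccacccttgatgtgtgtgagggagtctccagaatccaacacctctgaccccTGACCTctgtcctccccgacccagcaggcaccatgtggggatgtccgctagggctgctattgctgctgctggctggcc
Cat, chr3:110329477-110329776, minus strand: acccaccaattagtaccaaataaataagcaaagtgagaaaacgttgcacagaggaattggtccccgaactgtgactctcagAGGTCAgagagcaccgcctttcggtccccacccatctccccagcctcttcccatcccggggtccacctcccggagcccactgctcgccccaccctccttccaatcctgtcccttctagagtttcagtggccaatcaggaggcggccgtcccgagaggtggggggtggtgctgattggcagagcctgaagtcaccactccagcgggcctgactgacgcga

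Several genes of fatty acid synthesis also had large rises. Of 12 measured genes of a lipid synthesis list, 5 were higher (41.7%, beside 1.44% of all genes), none was lower and the median was 0.19. Scd, the stearoyl-CoA desaturase that makes oleate and palmitoleate, had 6.42, 7.18, 7.30, 7.26 and 5.84 in rosiglitazone and 4.30, 3.18, 4.60, 3.49 and 3.69 in resveratrol arrays. The groups did not overlap, and the log2 fold change was 2.95 (SE 0.43, a 7.71-fold difference, adjusted p = 0.000299). Thrsp, the lipogenic nuclear protein Spot 14, had 6.27, 6.86, 7.25, 7.16 and 5.74 in rosiglitazone and 4.09, 4.0, 4.19, 3.63 and 3.54 in resveratrol arrays. For both genes, rosiglitazone replicates 5 and 1 were the lowest of their group. Thrsp was 6.81-fold higher (adjusted p = 2.57e-08).

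Elovl6, which lengthens palmitate to stearate, had 4.49, 4.40, 4.62, 4.18 and 4.70 in rosiglitazone and 2.49, 2.85, 2.31, 2.39 and 2.32 in resveratrol arrays. In contrast to Scd and Thrsp, its highest rosiglitazone value was on replicate 5. The log2 fold change was 2.01 (SE 0.15, adjusted p = 1.06e-08). The resveratrol mean of 2.47 was close to the background level of 2.38 and below the 2.78 that the wider set of receptor names gave, so the size of this change is less certain than its SE. Srebf1, the transcription factor that drives these genes, averaged 4.96 (SD 0.39, n = 5) in rosiglitazone and 3.90 (SD 0.18, n = 5) in resveratrol muscle, a 2.1-fold rise (adjusted p = 0.00666). Scd2, a second desaturase, was 1.83-fold higher (adjusted p = 0.0294) but lost its call without rosiglitazone replicate 2, 3 or 4 or resveratrol replicate 1, 2, 3 or 5 (adjusted p 0.05 to 0.0879). Fads3, a desaturase-like gene outside the list, was 1.99-fold higher (adjusted p = 0.00379).

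Other members of the synthetic route were not called. Acly, which supplies cytosolic acetyl-CoA, differed by 0.15 (95% interval -0.13 to 0.42, adjusted p = 0.715). Me1, the malic enzyme that supplies NADPH, was at 7.70 to 7.82 in rosiglitazone and 7.86 to 8.02 in resveratrol arrays, so the groups did not overlap, but the difference of -0.21 was not called (adjusted p = 0.341).

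Adipocyte markers were examined because dissected muscle can hold fat cells. Of 15 measured markers 3 were higher, namely Fabp4, Cidec and Lep, none was lower, 12 had a positive fold change and the median was 0.40. Fabp4, already given with the PPARgamma list and also a gene of capillary endothelium, had the largest difference, 1.36. The mean level of the list lay between 5.81 and 6.21 on rosiglitazone and between 5.45 and 5.64 on resveratrol arrays, without overlap. Cidec, a lipid droplet protein, had 2.98 to 4.23 in rosiglitazone and 2.18 to 2.77 in resveratrol arrays (2.39-fold higher, adjusted p = 0.00478). Its resveratrol mean of 2.40 was close to the background level of 2.38 and below the wider one of 2.78, so the size of this change is uncertain. Lep, the adipocyte hormone leptin, averaged 2.78 (SD 0.55, n = 5) in rosiglitazone and 1.96 (SD 0.17, n = 5) in resveratrol arrays (adjusted p = 0.0179), the resveratrol mean below background, and was not called without rosiglitazone replicate 4 (adjusted p = 0.0506; over all alternatives 0.00378 to 0.0762). Adipoq, the defining adipocyte hormone, averaged 5.33 (SD 0.41, n = 5) in rosiglitazone and 4.59 (SD 0.56, n = 5) in resveratrol arrays with overlapping values, and was not called (difference 0.74, 95% interval 0.08 to 1.39, adjusted p = 0.312). Plin1 differed by 0.44 and Cfd by 0.55, neither called. In whole muscle, more cells of a type and more RNA per cell cannot be told apart. The part of adipocyte RNA in the higher levels of lipid genes was not tested.

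Enzymes of triglyceride, diacylglycerol and ceramide metabolism moved both ways, 3 of 25 higher and 2 lower, with a median of 0.13. The called ceramidases went both ways. Asah1, the lysosomal acid ceramidase, was higher, at 6.22 (SD 0.08, n = 5) in rosiglitazone and 5.69 (SD 0.14, n = 5) in resveratrol muscle (adjusted p = 0.0016), and so was the alkaline Acer2, by 0.61 (adjusted p = 0.0214). Asah2, the neutral ceramidase, fell by 0.63 on the log2 scale (adjusted p = 0.0223). Ugcg, which adds glucose to ceramide, was 1.37-fold higher (adjusted p = 0.049). Dgke, a diacylglycerol kinase, was at 5.42 (SD 0.12, n = 5) in rosiglitazone and 6.11 (SD 0.24, n = 5) in resveratrol muscle, with a log2 fold change of -0.69 (adjusted p = 0.00112). Asah1 and Dgke were called whichever array was left out. Acer2 lost its call without rosiglitazone replicate 1, 2 or 3 or resveratrol replicate 1 (adjusted p 0.054 to 0.0649), Asah2 without rosiglitazone replicate 3, 4 or 5 or resveratrol replicate 2 or 3 (0.0516 to 0.0817), and Ugcg without any 1 of the 10 arrays (0.0548 to 0.132).

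Of 18 measured genes of mitochondrial beta-oxidation, the pathway that breaks fatty acids into acetyl-CoA, 2 were called lower with rosiglitazone and none higher, while 15 had a negative fold change with a median of -0.25, beside a median of 0.00 over all genes. The mean level of the list lay between 7.32 and 7.74 on rosiglitazone and between 7.65 and 7.87 on resveratrol arrays, which overlapped. Hadh, the short-chain 3-hydroxyacyl-CoA dehydrogenase, had 8.40, 8.46, 8.46, 8.57 and 8.64 in rosiglitazone and 8.96, 9.03, 8.94, 8.82 and 9.07 in resveratrol arrays. The groups did not overlap, and Hadh fell by 0.46 on the log2 scale (SE 0.10, adjusted p = 0.0133). Acadm, the medium-chain acyl-CoA dehydrogenase, was at 9.48 to 9.71 in rosiglitazone and 9.92 to 10.07 in resveratrol arrays, and fell by 0.39 (SE 0.09, adjusted p = 0.0222). Its call was lost without rosiglitazone replicate 1 or 2 or resveratrol replicate 3 or 5 (adjusted p 0.0529 to 0.0635). It was also lost in a fit of only the 2 groups (adjusted p = 0.0818). Acadl, the long-chain enzyme, had no overlap either, at 9.18 to 9.35 in rosiglitazone and 9.53 to 9.72 in resveratrol arrays, but was not called (difference -0.31, adjusted p = 0.0887). The differences of Hadha, a subunit of the trifunctional protein (-0.32), Decr1, which handles unsaturated fatty acids (-0.42), and Acadvl, the very-long-chain enzyme (-0.15), were not called.

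**Figure D3:**
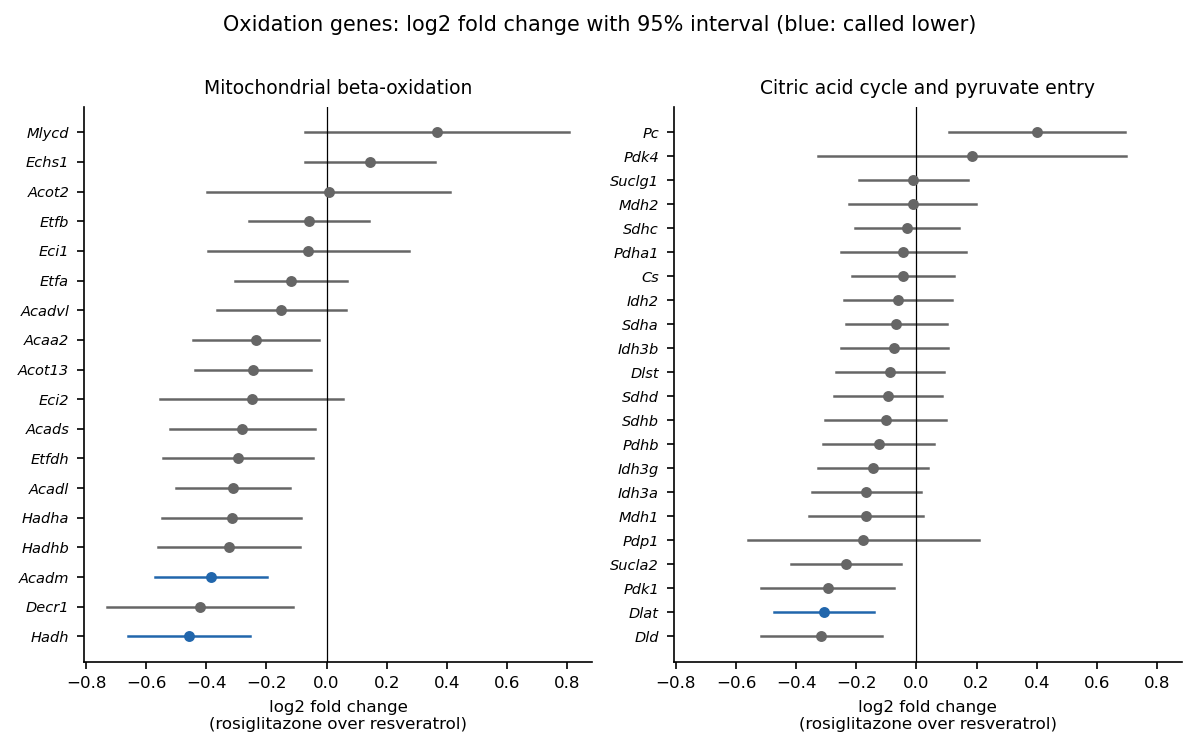
Points give the log2 fold change of rosiglitazone over resveratrol and lines its 95% interval, for the 18 measured genes of mitochondrial beta-oxidation and the 22 of the citric acid cycle with pyruvate entry. Blue marks the 3 genes called lower (Hadh, Acadm and Dlat), and most points lie left of 0.

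Upstream of the spiral, none of 12 genes of fatty acid uptake and the carnitine shuttle was called (median -0.16). Cpt1b, the muscle carnitine palmitoyltransferase, differed by 0.15 (95% interval -0.08 to 0.37). Fabp3, the fatty acid-binding protein of muscle fibres, was at 8.21 to 9.42 in rosiglitazone and 9.26 to 9.55 in resveratrol arrays, with 8.21 on rosiglitazone replicate 2, and was not called (adjusted p = 0.322). Of 20 peroxisomal genes 1 was lower, Cat, the catalase that destroys hydrogen peroxide. It had 8.95, 8.78, 9.34, 8.92 and 8.99 in rosiglitazone and 9.42, 9.91, 9.42, 9.54 and 9.42 in resveratrol arrays, so that rosiglitazone replicate 3 came close to the resveratrol arrays without reaching them. Cat fell by 0.54 (SE 0.11, adjusted p = 0.00929), a call lost in a fit of only the 2 groups (adjusted p = 0.0678; over all alternatives 0.000559 to 0.0678). Dhrs4, a peroxisomal dehydrogenase-reductase outside the list, fell by 0.55 (adjusted p = 0.0196) and lost its call without rosiglitazone replicate 2 or resveratrol replicate 1, 2 or 3 (adjusted p 0.0532 to 0.0721).

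The citric acid cycle and respiratory chain showed few calls. Of 22 cycle and pyruvate-entry genes 20 had a negative fold change (median -0.09) and 1 was called lower, Dlat, a subunit of pyruvate dehydrogenase, by 0.31 (adjusted p = 0.0484). Dlat kept its call only without resveratrol replicate 2 among the 10 arrays left out in turn, and lost it without any other (adjusted p 0.0648 to 0.127). It was not called in a fit of only the 2 groups (adjusted p = 0.187). None of 53 subunits of the respiratory chain and ATP synthase was called, and all lay between -0.27 and 0.21 (median -0.06). Pdk4, the kinase that shuts off pyruvate dehydrogenase, averaged 10.64 (SD 0.34, n = 5) in rosiglitazone and 10.46 (SD 0.27, n = 5) in resveratrol muscle, a difference of 0.19 (95% interval -0.33 to 0.70).

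Of 28 mitochondrial regulators, uncoupling proteins and members of the AMPK-sirtuin axis, on which resveratrol is thought to act, 1 was higher and 1 lower. Ucp2, an uncoupling protein of many cell types, had 5.72, 5.51, 5.60, 5.53 and 5.92 in rosiglitazone and 4.31, 4.35, 4.70, 4.47 and 4.73 in resveratrol arrays. The nearest arrays of the groups were 0.78 apart, with a log2 difference of 1.14 (SE 0.15, adjusted p = 0.000113). Nmnat1, which makes NAD in the nucleus, fell by 0.53 (adjusted p = 0.0193) and lost its call without rosiglitazone replicate 2 or resveratrol replicate 2 (adjusted p 0.0601 and 0.0711; over all alternatives 0.00321 to 0.0899). Ppargc1a, the coactivator of mitochondrial biogenesis, averaged 7.60 (SD 0.17, n = 5) in rosiglitazone and 7.66 (SD 0.20, n = 5) in resveratrol muscle, and the interval of the difference ran from -0.36 to 0.24. Ucp3, the muscle uncoupling protein, ranged from 6.54 to 9.44 in rosiglitazone and from 7.25 to 8.96 in resveratrol arrays, so that the interval of its difference ran from -1.12 to 1.36.

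Some further called lower genes that encode mitochondrial proteins were picked after their values were seen. They are single genes, and the share of called genes among all mitochondrial ones was not counted. Synj2bp, a tail-anchored protein of the outer membrane, fell by 0.57 (adjusted p = 0.0078), Rfesd, a protein with a Rieske iron-sulphur domain, fell by 0.52 (adjusted p = 0.012) and Mtif2, a mitochondrial translation initiation factor, fell by 0.43 (adjusted p = 0.0126). These 3 were called whichever array was left out. Mtif2 was not called in a fit of only the 2 groups (adjusted p = 0.0802; over all alternatives 0.00276 to 0.0802), and Synj2bp when the rows of a gene were averaged (adjusted p = 0.112; over all alternatives 0.000624 to 0.112). Guf1, a mitochondrial elongation factor, fell by 0.39 (adjusted p = 0.0259) and lost its call without rosiglitazone replicate 1, 3 or 5 or resveratrol replicate 1, 3 or 5 (0.0513 to 0.0824). It was not called in a fit of only the 2 groups (adjusted p = 0.0975). Outside this group were Carnmt1, which methylates carnosine to anserine, and Cacybp, a calcyclin-binding protein. Carnmt1 had 8.24, 8.27, 8.17, 8.36 and 8.08 in rosiglitazone and 8.73, 8.86, 8.87, 8.71 and 8.64 in resveratrol arrays. It fell by 0.54 (SE 0.09, adjusted p = 0.000843), and Cacybp fell by 0.57 (SE 0.09, adjusted p = 0.000789).

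Of 18 genes of glucose handling, 18 of insulin signalling and 20 of branched-chain amino acid breakdown, 4 were called. Hk2, the insulin-responsive hexokinase, was 1.4-fold higher (adjusted p = 0.0336), but its groups overlapped, at 7.27 to 7.71 in rosiglitazone and 6.86 to 7.35 in resveratrol arrays. Grb14, an adaptor that inhibits the insulin receptor, had 6.76, 6.53, 6.61, 6.63 and 6.57 in rosiglitazone and 7.20, 7.42, 7.04, 7.02 and 7.04 in resveratrol arrays, without overlap. It fell by 0.52 (SE 0.11, adjusted p = 0.0145), and its call was lost without resveratrol replicate 2, its highest array (adjusted p = 0.0534; over all alternatives 0.00218 to 0.0534). Bcat2, the mitochondrial aminotransferase that opens branched-chain breakdown, was 1.62-fold higher (adjusted p = 0.0212), and Hibch, a valine-pathway hydrolase, fell by 0.36 (adjusted p = 0.036). Hibch and Hk2 were not called in a fit of only the 2 groups (adjusted p = 0.153 and 0.0915). Slc2a4, the insulin-responsive glucose transporter GLUT4, differed by 0.31 (95% interval 0.04 to 0.58) and was not called (adjusted p = 0.307). Outside these lists, Trarg1, which regulates GLUT4 trafficking, was 1.54-fold higher (adjusted p = 0.0382), but was not called in a fit of only the 2 groups (adjusted p = 0.099). Calls were lost for Hk2 without rosiglitazone replicate 1, 3 or 5 or resveratrol replicate 2, 3 or 4 (adjusted p 0.074 to 0.0974), for Bcat2 without rosiglitazone replicate 1, 2 or 5 or resveratrol replicate 2 (0.051 to 0.0774), for Hibch without rosiglitazone replicate 3, 4 or 5 or resveratrol replicate 1, 3, 4 or 5 (0.0502 to 0.106), and for Trarg1 without rosiglitazone replicate 3, 4 or 5 or resveratrol replicate 2, 3, 4 or 5 (0.052 to 0.115).

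Of 16 genes of cholesterol synthesis, uptake and export 3, namely Nr1h3, Abcg1 and Insig1, were higher and none lower (median 0.04). Nr1h3, which encodes the oxysterol receptor LXRalpha, averaged 5.54 (SD 0.17, n = 5) in rosiglitazone and 4.73 (SD 0.18, n = 5) in resveratrol muscle, a 1.76-fold rise (adjusted p = 0.00109). It was the 1 called gene among 20 nuclear receptors measured. Abcg1, the cholesterol exporter that LXR controls, had 4.28, 4.47, 4.47, 4.37 and 4.05 in rosiglitazone and 2.97, 3.22, 3.35, 3.07 and 3.32 in resveratrol arrays. The groups lay 0.71 apart at their nearest arrays, and the log2 fold change was 1.14 (SE 0.17, adjusted p = 0.000425). Outside the list, Mylip, the LXR-induced ligase that degrades the LDL receptor, was 1.8-fold higher (adjusted p = 0.0053), and Apoe, a lipoprotein component, 1.75-fold higher (adjusted p = 0.03). Within it, Insig1, which holds back sterol synthesis, was 1.44-fold higher (adjusted p = 0.0476). Insig1 was not called in a fit of only the 2 groups (adjusted p = 0.18). Apoe lost its call without rosiglitazone replicate 2, 3 or 5 or resveratrol replicate 1, 2 or 5 (adjusted p 0.054 to 0.105), and Insig1 without rosiglitazone replicate 1, 3 or 4 or resveratrol replicate 1, 2, 4 or 5 (0.0631 to 0.143).

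Called endothelial and pericyte markers went in both directions, with 5 of 28 higher (Ly6c, Vwf, Sox18, Esam and Tek), 3 lower (Aqp1, Ace and Cd34) and a median of 0.16. Their mean level lay between 5.06 and 5.15 on rosiglitazone and between 4.96 and 5.11 on resveratrol arrays, which overlapped. Cdh5, the junction protein VE-cadherin that all endothelium carries, averaged 7.23 (SD 0.12, n = 5) in rosiglitazone and 7.24 (SD 0.17, n = 5) in resveratrol muscle, and the interval of the difference ran from -0.20 to 0.19. Flt1, the VEGF receptor VEGFR1, differed by -0.38 and was not called (adjusted p = 0.0946).

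The most strongly lowered gene of all was Aqp1, the water channel of capillary endothelium and red cells. It had 4.45, 4.47, 4.86, 4.65 and 4.96 in rosiglitazone and 6.74, 6.47, 6.82, 6.87 and 6.87 in resveratrol arrays. The highest rosiglitazone array lay 1.5 below the lowest resveratrol array, and the log2 fold change was -2.08 (SE 0.12, a 4.22-fold difference, adjusted p = 1.28e-10). Ace, the angiotensin-converting enzyme of the vessel lining, had 3.69, 3.76, 4.36, 4.07 and 4.58 in rosiglitazone and 5.77, 5.74, 5.59, 5.31 and 5.37 in resveratrol arrays. The groups were again apart, by a log2 difference of -1.46 (SE 0.19, adjusted p = 4.69e-05). Cd34, a sialomucin of capillary endothelium and of stromal progenitors, fell by 0.82 (adjusted p = 0.0316), and Nrp1, a coreceptor for VEGF outside the list, fell by 0.44 (adjusted p = 0.0306). Cd34 lost its call without rosiglitazone replicate 1 or 5 or resveratrol replicate 2, 3, 4 or 5 (adjusted p 0.0611 to 0.096), and Nrp1 without rosiglitazone replicate 1, 4 or 5 or resveratrol replicate 3, 4 or 5 (0.0556 to 0.088).

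Among the higher markers was Vwf, the clotting factor carrier stored in endothelial granules, with 4.22 to 4.59 in rosiglitazone and 3.38 to 3.72 in resveratrol arrays (1.94-fold, adjusted p = 1.11e-05). Sox18, an endothelial transcription factor, was 1.63-fold higher (adjusted p = 0.00804) and the adhesion molecule Esam 1.81-fold (adjusted p = 0.0164). Tek, the angiopoietin receptor Tie2, was 1.61-fold higher (adjusted p = 0.034), and Cav1, a coat protein of caveolae that is not on the list, 1.42-fold (adjusted p = 0.0179). Esam and Cav1 lost their calls without resveratrol replicate 2 (adjusted p 0.0622 and 0.0525; over all alternatives 0.00434 to 0.0622 and 0.0021 to 0.0525), and Tek without rosiglitazone replicate 1, 2, 3 or 4 or resveratrol replicate 2, 3 or 4 (0.0543 to 0.111).

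**Figure D4:**
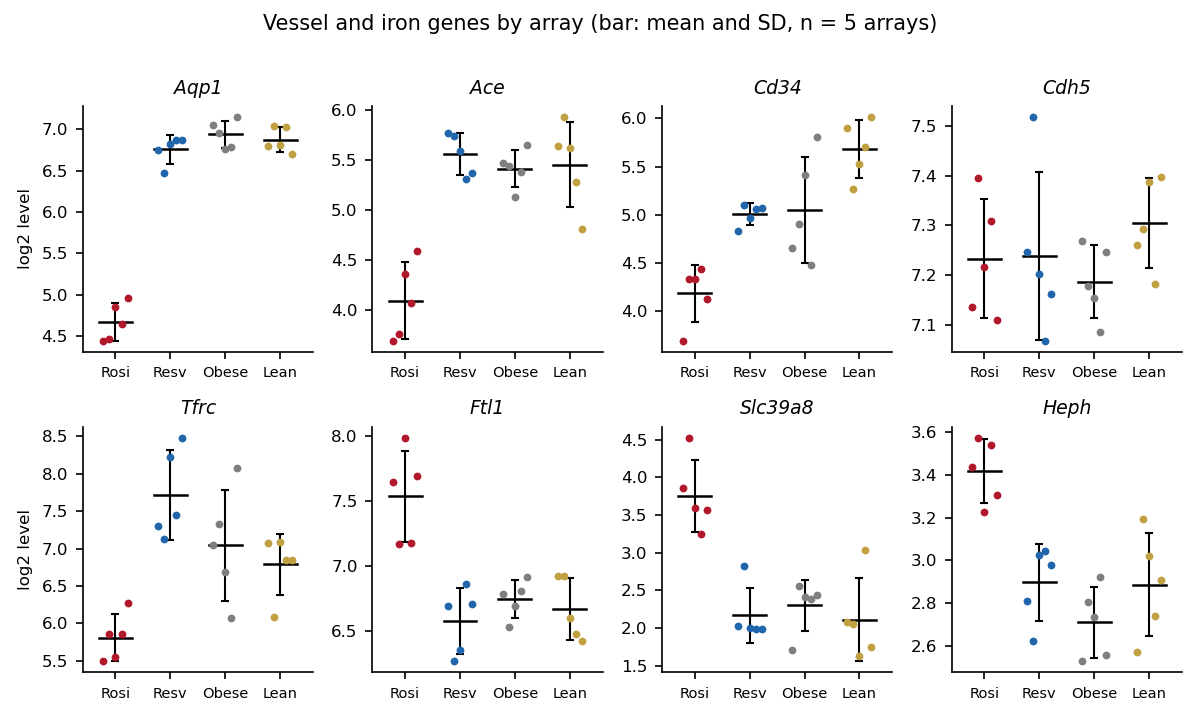
Each panel shows 1 gene, with its log2 level on the vertical axis and a point for each array of the rosiglitazone (Rosi), resveratrol (Resv), obese and lean control groups. Bars give the mean and SD of 5 arrays. Aqp1, Ace and Tfrc are lower on all 5 rosiglitazone arrays than on any resveratrol array, Ftl1, Slc39a8 and Heph are higher, and the Cdh5 means are 7.23 and 7.24.

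Of 28 fibroblast and matrix genes, 3 were called lower and 1 higher with rosiglitazone. In all, 20 had a negative fold change and the median was -0.29. The mean level of the list lay between 4.31 and 4.80 on rosiglitazone and between 4.65 and 5.20 on resveratrol arrays, with overlap. Pdgfra, the receptor that marks muscle fibroblast progenitors, had 3.75, 3.81, 4.47, 4.38 and 4.22 in rosiglitazone and 4.72, 4.92, 4.74, 5.01 and 4.64 in resveratrol arrays. The groups did not overlap, and it fell by 0.68 (SE 0.14, adjusted p = 0.0124) whichever array was left out. Col15a1, a basement membrane collagen of capillaries and fibres, fell by 0.91 (adjusted p = 0.0354) and Thbs4, a matrix thrombospondin of tendon and muscle, fell by 0.90 (adjusted p = 0.0295). Col4a2, a chain of basement membrane collagen IV, was 1.51-fold higher (adjusted p = 0.0338). The abundant fibrillar genes Col1a1 (difference -0.98, adjusted p = 0.0887), Col3a1 (-0.67, 0.074) and the proteoglycan genes Lum (-1.03, 0.11) and Dcn (-0.31, 0.195) were not called. Calls were lost for Col15a1 without any array other than rosiglitazone replicate 2 (adjusted p 0.0506 to 0.113), for Thbs4 without rosiglitazone replicate 1 or 5 or resveratrol replicate 2, 3 or 4 (0.0544 to 0.0825), and for Col4a2 without rosiglitazone replicate 2, 3 or 5 or resveratrol replicate 1, 2 or 3 (0.0562 to 0.101).

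Other large falls were in genes outside the lists. Stxbp6, the SNARE-binding protein amisyn, averaged 3.12 (SD 0.44, n = 5) in rosiglitazone and 4.22 (SD 0.38, n = 5) in resveratrol muscle, and fell by 1.10 (SE 0.20, adjusted p = 0.00312). Myoc, the secreted glycoprotein myocilin, fell by 0.94 (adjusted p = 0.0124), Cpq, a carboxypeptidase, fell by 0.87 (adjusted p = 0.00258) and Myrip, which links myosin to Rab27 vesicles, fell by 0.75 (adjusted p = 0.00465). Fam83b fell by 0.92 (adjusted p = 0.00172), with its rosiglitazone mean of 1.97 below background. These 5 were called whichever array was left out. Mettl21cl1, named as a methyltransferase-like gene, had the second-lowest fold change, but its rosiglitazone mean of 2.13 lay below background, so the size of the difference is uncertain. It had 2.5, 2.58, 2.10, 1.45 and 1.99 in rosiglitazone and 4.84, 4.66, 4.01, 4.53 and 2.61 in resveratrol arrays. Resveratrol replicate 5 stood apart from its group and next to the rosiglitazone arrays, so that its difference of -2.0 (SE 0.53, adjusted p = 0.0484) was called without that array and lost without any other (adjusted p 0.0637 to 0.137). Its call was also lost in 7 of the other 10 alternatives (0.0511 to 0.126).

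In iron handling, transferrin receptor and ferritin moved in opposite directions. Both are set by iron-regulatory proteins, which in iron-poor cells stabilise the receptor message and block ferritin translation. The part of iron status in these RNA differences was not tested. Tfrc, the receptor that takes up transferrin-bound iron, had 5.49, 5.86, 5.55, 5.86 and 6.27 in rosiglitazone and 7.30, 7.13, 8.23, 7.45 and 8.48 in resveratrol arrays. The nearest arrays of the groups were 0.86 apart, and Tfrc fell by 1.91 (SE 0.30, a 3.76-fold difference, adjusted p = 0.000581). The obese and lean control means of 7.04 and 6.79 lay between those of the treated groups. Ftl1, the ferritin light chain, had 7.65, 7.17, 7.99, 7.18 and 7.69 in rosiglitazone and 6.69, 6.27, 6.35, 6.87 and 6.71 in resveratrol arrays. It was 1.94-fold higher (SE 0.16 on the log2 scale, adjusted p = 0.000856). The ferritin light chain copies Ftl1l1, Ftl1l5 and Ftl1l7 also read higher, by 1.01, 1.23 and 1.25, but such near-identical copies share probes and may not be separate transcripts.

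Slc39a8, the importer ZIP8 that carries zinc, manganese and iron, was 3-fold higher (adjusted p = 0.000537), with 3.25 to 4.52 in rosiglitazone and 1.99 to 2.83 in resveratrol arrays. Only resveratrol replicate 2 of its group exceeded the background level. Heph, the ferroxidase hephaestin, was 1.44-fold higher (adjusted p = 0.024) and lost its call without rosiglitazone replicate 1, 2 or 4 or resveratrol replicate 1 or 2 (adjusted p 0.052 to 0.0846). Of the 17 erythroid and iron genes measured in the list, Ftl1 and Tfrc were the called ones. Slc39a8, Heph and the ferritin light chain copies lie outside the list. The red cell anion exchanger Slc4a1 averaged 3.76 (SD 0.77, n = 5) in rosiglitazone and 3.28 (SD 0.30, n = 5) in resveratrol muscle and was not called (adjusted p = 0.408), and the part of red cell content in these differences was not tested.

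Among 34 antioxidant, glutathione and metallothionein genes 5 were higher and 1, Cat, was lower (median 0.03). Gstm2 and Gstp1, cytosolic glutathione transferases, were 2.14-fold (adjusted p = 0.00019) and 1.92-fold higher (adjusted p = 0.00031), as Mgst1 was. Gstm2 had 6.18 to 7.17 in rosiglitazone and 5.36 to 5.72 in resveratrol arrays. Txn1, thioredoxin, was 1.34-fold higher (adjusted p = 0.0182), but was not called in a fit of only the 2 groups (adjusted p = 0.0947). Mt2A, a metallothionein, was 2.78-fold higher but with overlapping arrays, at 3.37 to 5.49 in rosiglitazone and 1.70 to 3.75 in resveratrol (adjusted p = 0.049). Txn1 lost its call without rosiglitazone replicate 1 or 3 or resveratrol replicate 2 (adjusted p 0.0522 to 0.0632), and Mt2A without rosiglitazone replicate 1, 3 or 5 or resveratrol replicate 2, 3, 4 or 5 (0.0502 to 0.149).

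Of 45 ribosomal protein genes 3 were called higher and none lower, and 43 had a positive fold change, with a median of 0.20, beside 49.0% of all genes above 0. The mean level of the list was 6.27 to 6.52 on rosiglitazone and 6.08 to 6.23 on resveratrol arrays. The called genes were Rps28 (1.41-fold, adjusted p = 0.012), Rpl3 (1.38-fold, adjusted p = 0.0152) and Rplp2 (1.3-fold, adjusted p = 0.0403), each of which has related copies in the genome that could share probes. Rplp2 was not called in a fit of only the 2 groups (adjusted p = 0.138). Rplp2 lost its call without any array other than rosiglitazone replicate 4 (adjusted p 0.054 to 0.117), Rpl3 in a fit of only the 2 groups (adjusted p = 0.0524; over all alternatives 0.00434 to 0.0524), and Rps28 was not called when its rows were averaged (adjusted p = 0.323; over all alternatives 0.00242 to 0.323). Eef1a1, the elongation factor that brings transfer RNA to ribosomes in non-muscle cells, had 9.39, 9.47, 9.31, 9.39 and 9.37 in rosiglitazone and 8.69, 8.65, 8.92, 8.85 and 8.92 in resveratrol arrays. It was 1.49-fold higher (SE 0.09 on the log2 scale, adjusted p = 0.00032), with no overlap.

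Several cytoskeletal genes typical of non-muscle cells, picked after their values were seen, were higher too. Vim, the intermediate filament protein vimentin, had 8.83, 8.91, 8.85, 8.90 and 8.59 in rosiglitazone and 8.03, 7.92, 8.29, 8.07 and 8.13 in resveratrol arrays, a 1.66-fold rise (adjusted p = 0.000327). Csrp1, a LIM protein of smooth muscle, was 1.91-fold (adjusted p = 0.000299), the crosslinker Flna 1.73-fold (adjusted p = 0.00684), Tagln, a smooth muscle actin-binding protein, 1.67-fold (adjusted p = 0.0145) and Actn4, a non-muscle alpha-actinin, 1.4-fold higher (adjusted p = 0.00804). Each of these 5 was called whichever array was left out. Some parts of the class I antigen-presentation complex, picked in the same way, were also higher, namely B2m, its shared light chain (1.51-fold, adjusted p = 0.00551), and the heavy chains RT1-CE1 (1.62-fold, adjusted p = 0.000891) and RT1-S3 (1.73-fold, adjusted p = 0.0214). How many other genes of antigen presentation were called was not counted. RT1 genes resemble each other closely, so their separate values are uncertain, and RT1-S3 lost its call without rosiglitazone replicate 5 or resveratrol replicate 2 or 3 (adjusted p 0.0618 to 0.0726).

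Against these changes, lists of muscle fibre genes and of leukocytes gave no call. None of 20 skeletal muscle fibre genes was called (range -0.12 to 0.57), and Acta1, skeletal actin, differed by 0.05 (95% interval -0.11 to 0.21). Myh7, the slow myosin of red muscle, averaged 8.55 (SD 0.16, n = 5) in rosiglitazone and 8.39 (SD 0.44, n = 5) in resveratrol muscle. None of 24 macrophage and leukocyte markers (median 0.06), 18 genes of atrophy and autophagy (0.15), 32 of heat shock and the unfolded protein response (0.03), 22 interferon response genes (0.12), 9 nerve and Schwann cell markers (-0.09) or 11 clock genes (0.09) was called. Of the 24 leukocyte markers, 8 lay below background in both groups. The clock genes Bmal1 and Dbp varied widely within the groups, Bmal1 from 3.27 to 6.68 in rosiglitazone and from 3.78 to 6.67 in resveratrol arrays. A clock score, which sets Bmal1, Clock and Npas2 against Dbp, Per1, Per2 and Per3, had a median of 0.28 in rosiglitazone and -0.51 in resveratrol arrays with wide overlap, and 308 genes were called with it as a covariate.

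**Figure D5:**
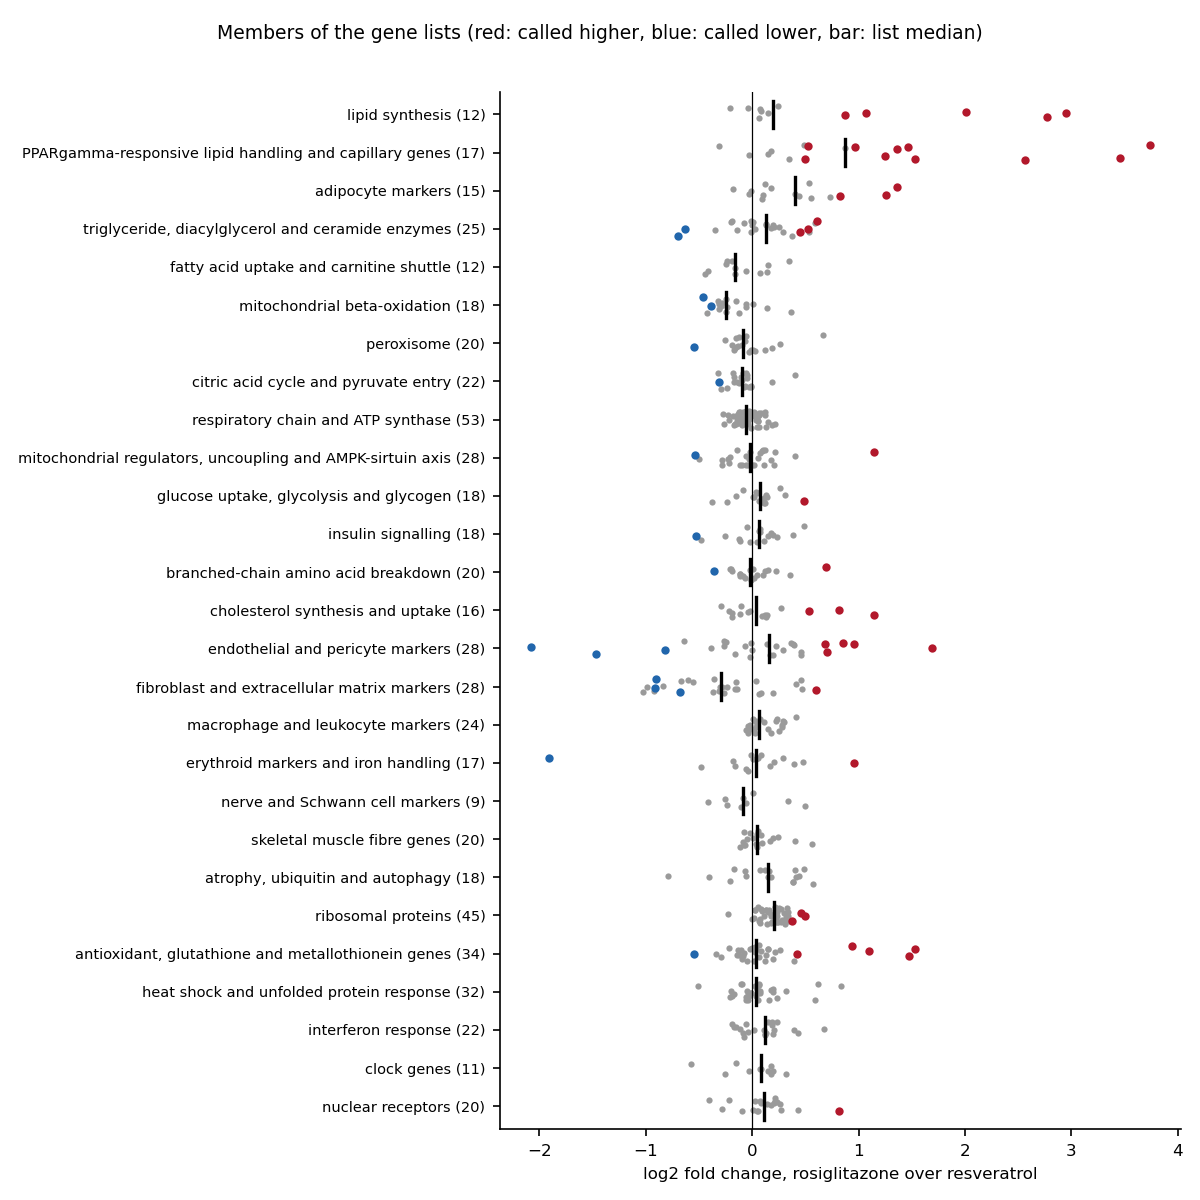
Each point is a measured member of a gene list, placed by its log2 fold change of rosiglitazone over resveratrol, with the number measured in brackets after the list name. Red points were called higher, blue points lower, grey points were not called, and black bars are list medians. The list median is highest, 0.87, for the list named PPARgamma-responsive and lowest, -0.29, for the fibroblast and matrix genes.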

How the data were processed

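RNA of red tibialis anterior was labelled from 100 ng per rat and hybridised to Affymetrix Rat Gene 2.1 ST arrays, 1 rat per array. The deposited values are log2 expression levels. The authors used RMA, a method that removes background signal, brings all arrays to 1 distribution and joins the probes of a transcript cluster into 1 value, so a change shared by most genes would be removed. Versions of the upstream software are not given in the sources used here. Of 36685 rows, 14824 carried exactly 1 gene symbol, 829 several and 21032 none. Where several rows named a gene (234 genes), the brightest was taken, leaving 14557 genes.

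A mean was fitted for each of 4 groups over all 20 arrays with limma (version 3.58.1, R 4.3.3), without trend or robust weighting, and rosiglitazone was compared with resveratrol. Tests were two-sided with Benjamini-Hochberg adjustment over all genes, with calls made below an adjusted p of 0.05. Residual degrees of freedom were 16, prior ones 6.35, and the median residual SD was 0.222, and a 95% interval reached a median of 0.286 to either side. Precision is limited by the number of arrays. Python 3.11.15 with pandas 2.3.3 and matplotlib 3.10.9 made the tables and plots.

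The members and gene lists were chosen with earlier results of these data known, and the lists were not tested as sets. The rule for named genes took the 15 highest and the 15 lowest called genes without provisional symbols, up to 6 called members per list, and a set that was always named, which gave 78 genes. Defining members of a list that were not called are also named. For a further 60 genes in the text, values were known when they were chosen. The background level of 2.38 is the 95th percentile of the mean level of 209 olfactory and vomeronasal receptor genes. Receptor genes under their newer names too, chosen after seeing the data, numbered 1245 and gave 2.78. The table holds no detection p, and no genome was used, so positions are given only for RefSeq promoters of build GRCr8.

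The alternatives were the 2 groups alone, a replicate block, trend and robust moderation, only genes above background, averaged rows, all rows, array weights, median centring, quantile normalisation, a clock score covariate and leaving out each of the 10 arrays. Correlations of deviations between same-numbered arrays ran from -0.06 to 0.10 and between others from -0.14 to 0.11. They showed no pairing of the rats by replicate number, and whether the numbers mark a shared batch was not tested. The labels name no strip or scan batch, so none was examined.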

Additional observations from a re-analysis of the deposited data

Results flagged for a closer look

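Within the 5 arrays of a group, 1 array stood apart by Dixon's test for 11 of 276 combinations of named gene and group, where chance flags about 1 in 20. The gap of that array over the range of its group was 0.946 for Slc39a8 in resveratrol (replicate 2, 2.83, the others at most 2.03), 0.845 for Mylip in resveratrol (replicate 5, 4.47, the others at most 4.21) and 0.836 for Myrip in resveratrol (replicate 1, 4.58, the others at least 5.08). It was 0.750 for Cat in resveratrol (replicate 2), 0.712 for Tek in rosiglitazone (replicate 2) and 0.712 for Cav1 in resveratrol (replicate 5). In rosiglitazone arrays it was 0.764 for Tagln (replicate 5), 0.751 for Clec1a (replicate 1), 0.733 for Vim (replicate 5), 0.731 for Cav1 (replicate 4) and 0.726 for Il33 (replicate 5). Tek and Cav1 are the genes of this set whose call was lost without an array, as given with their values.

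In a fit over all rows, 245 rows were called. Rows without a gene symbol accounted for 77 of them, 51 higher and 26 lower with rosiglitazone, and rows with several symbols for 7, 6 higher and 1 lower. These rows were left out of the comparison because no single gene can be named for them.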

How the results depend on the processing

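Of 297 called genes, 120 (100 higher, 20 lower) were called under every alternative, and 3 were lost whichever array was left out. The total was 177 (137 higher, 40 lower) in a fit of only the 2 groups and 161 (124 higher, 37 lower) over all rows, which adjusts over more tests. Genes not called in the fit of only the 2 groups also included Apoe, Asah2, Aspn, Col4a2, Dhrs4, Hk2 and Lep (adjusted p 0.0502 to 0.0915). The same held for Meox2, Mt2A, Nmnat1, Nrp1, Thbs4, Trarg1 and Ugcg (0.0505 to 0.122). With the replicate block the total was 225 (169 higher, 56 lower), of which 221 were shared with the main calls. Trend and robust moderation called 157 lower genes, and 396 in all. With 1 array left out, the totals ran from 177 to 253, the higher genes from 129 to 187 and the lower genes from 37 to 73. The cause was not tested. Over the remaining alternatives, totals lay between 264 and 372, the highest over the 8844 genes above background.

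Across named genes and alternatives, 2427 results kept direction and side of the threshold, 308 lost the call, 10 gained one and 14 changed sign. None of the genes that changed sign was called. The genes that gained a call were Alb, Acadl, Col1a1, Col3a1, Flt1 and Lum. The log2 fold change of Bmal1 was -0.15 and that of Ucp3 -0.24 with the clock score as covariate, and that of Cdh5 was 0.012 with array weights, 0.0011 with median centring and 0.0063 with the clock score. With 1 array left out, Bmal1 ran from -0.026 to 0.87, Ucp3 ran from -0.15 to 0.60, Cdh5 ran from -0.049 to 0.063 and Ppargc1a ran from -0.12 to 0.0054. Before adjustment, 1893 genes passed p under 0.05. The background level was 2.78 with newer receptor names. Among 1245 receptor genes that muscle should not use, 2 were called (0.161%).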

Other observations

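Some signalling molecules that act on leukocytes, picked after their values were seen, were called higher with rosiglitazone, although no leukocyte marker was called. They are single genes, and the share of called genes among all such molecules was not counted. Cxcl16, a chemokine that also scavenges oxidised lipoprotein, had 4.05, 4.37, 4.65, 4.38 and 4.52 in rosiglitazone and 3.64, 3.04, 2.97, 3.66 and 3.27 in resveratrol arrays (log2 fold change 1.08, SE 0.19, adjusted p = 0.00188). The groups did not overlap. Il33, an alarmin held in the nuclei of endothelial and stromal cells, was 1.91-fold higher (adjusted p = 0.00374), and Cxcl9, an interferon-induced chemokine, 1.71-fold higher (adjusted p = 0.00689). Adam15, a membrane metalloprotease, was 2.15-fold higher (adjusted p = 1.11e-05) and Cyyr1, a small membrane protein, 1.65-fold (adjusted p = 0.000146). All 5 were called whichever array was left out.

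Further genes called lower had less stable calls. Lrrc3b, a leucine-rich repeat membrane protein, fell by 0.92 (adjusted p = 0.0204) and was not called without rosiglitazone replicate 3 or resveratrol replicate 1 or 5 (0.0574 to 0.0717). Zim1, an imprinted zinc finger gene, fell by 0.80 (adjusted p = 0.0181) and was not called without rosiglitazone replicate 2 or resveratrol replicate 3 or 4 (0.0537 to 0.0611). Aspn, the matrix proteoglycan asporin, fell by 0.89 (adjusted p = 0.0456) with a rosiglitazone mean of 2.33 below background, and was called only without rosiglitazone replicate 4 or resveratrol replicate 1 among the left-out arrays (otherwise 0.0642 to 0.135). The mitochondrial genes Mss51 and Rtn4ip1 fell by 0.75 and 0.53 (adjusted p = 0.0464 and 0.0409). Rtn4ip1 was not called in a fit of only the 2 groups (adjusted p = 0.141). Mss51 was called only without resveratrol replicate 2 among the left-out arrays (otherwise 0.0546 to 0.131), and Rtn4ip1 only without rosiglitazone replicate 5 or resveratrol replicate 1 or 2 (otherwise 0.0637 to 0.116).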
